A study of Drosophila melanogaster with 24 samples.

Results

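Expression of 8 genes of fat storage was measured in whole adult males of *Drosophila melanogaster*: the lipases Lip4, mag and bmm, the lipid droplet proteins Lsd-1 and Lsd-2, and the lipogenic enzymes ACC, FASN1 and Desat1. They were taken by name, as probe sets annotated with that single gene symbol, and each of the 8 was represented by 1 probe set out of 18769 tested. The probe sets were 1624505_at (Lip4, CG6113), 1636583_at (mag, CG5932), 1640754_at (bmm, CG5295), 1636510_a_at (Lsd-1, CG10374), 1637359_at (Lsd-2, CG9057), 1636923_a_at (ACC, CG11198), 1624549_at (FASN1, CG3523) and 1628213_s_at (Desat1, CG5887). By the manufacturer's naming, probes of an s_at set can match transcripts of more than 1 gene, which applies here to Desat1.

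The flies came from a field-collected laboratory stock and had developed and spent their first adult days at a mean of 25 or 15 °C, in a fluctuating or a constant regime. They were then either ramped to 35 °C at 0.1 °C per minute or frozen from 20 °C, which gave 8 groups of 3 Affymetrix Drosophila Genome 2.0 arrays. The groups were 25 °C fluctuating, 35 °C and 20 °C, 25 °C constant, 35 °C and 20 °C, 15 °C fluctuating, 35 °C and 20 °C, and 15 °C constant, 35 °C and 20 °C. All groups shared the stock, the sex, the age in days and a stay at 20 °C before the assay. Each array measured a pool of flies. The authors mention a possible difference in physiological age between treatments, which was not tested here. Each combination of mean temperature and regime was made by 1 cabinet, so that neither factor can be told apart from the cabinet. Values are log2 expression levels after GC-RMA, in which a difference of 1 is a doubling of the level.

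Flies keep their energy reserve as triglyceride in lipid droplets, mostly in the fat body, the insect counterpart of liver and adipose tissue. ACC makes malonyl-CoA and FASN1 turns it into fatty acids, Desat1 puts a double bond into them, and the perilipins Lsd-1 and Lsd-2 coat the droplets and govern access to the fat. Lipases release the fatty acids again: bmm, the fly counterpart of adipose triglyceride lipase, works on the droplet, mag is a secreted lipase known from the gut, and Lip4 belongs to the acid lipase family.

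One array, 15 °C fluctuating, 35 °C, replicate 3, correlated with the others at only 0.208 to 0.216, against 0.969 to 0.998 among the remaining 23, and showed the 8 genes at 4.97 to 8.16. It was left out of all values below, so that this group has 2 arrays and takes its spread from all groups. A second array, 15 °C constant, 20 °C, replicate 1, carried egg shell and yolk transcripts with a summed linear signal, in units of 1000 here and below, of 45.9 over 19 genes, against 0.525 to 0.914 on the other 22 arrays. Without it every call on the 8 genes was kept. The 8 genes were well expressed: their mean level over the 23 arrays was at the 74.4th percentile of all probe sets for Lip4 and between the 92.6th and the 99.5th percentile for the other 7. Desat1, at 13.2 to 13.7, was close to the upper end of the array scale, where the highest value on any of these arrays was 14.8. FASN1 reached 13.5, within the range of Desat1.

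At a mean temperature of 25 °C all 8 genes were higher than at 15 °C, averaged over the 4 comparisons. Ramping to 35 °C lowered Lip4, mag, Lsd-1, ACC and FASN1 and raised bmm and Lsd-2, while with the fluctuating regime mag was the 1 gene past the threshold, at −0.18, beside Lsd-1 at −0.18 (adjusted p = 0.055). Of all probe sets, 28.9% rose and 27.1% fell with mean temperature, 16.2% rose and 17% fell with ramping, and 8.82% rose and 6.41% fell with the fluctuating regime in these averaged comparisons. The median change over all probe sets was 0.00 for each of the 3, whereas the medians of the 8 genes were 0.63 for mean temperature, −0.34 for ramping and −0.06 for the regime.

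**Figure D1:**
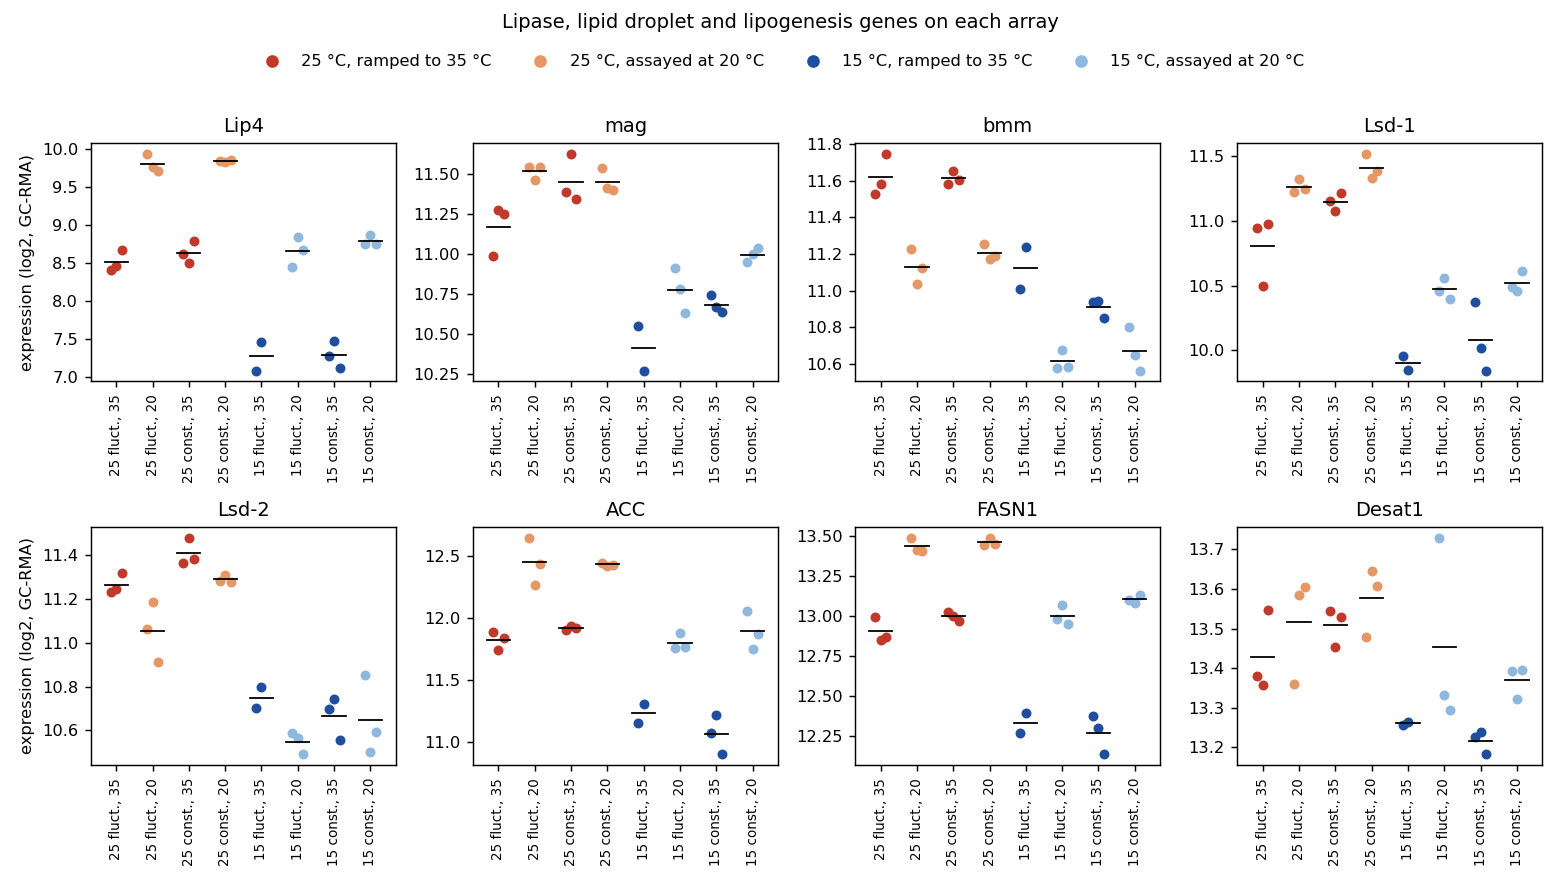
Expression of the 8 genes on each of the 23 arrays, on the log2 GC-RMA scale, with 1 panel per gene and its own vertical axis. Points are arrays, black bars are group means, and colours give the mean temperature and the assay temperature. For 7 genes the 25 °C arrays lie above the 15 °C arrays of the same regime and assay in all 4 pairs of groups, as do 11% of all probe sets, and Lip4, Lsd-1, ACC and FASN1 lie lower after ramping in every pair, as do 6.19%.

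Among the lipases, Lip4 had the widest range of the 8 genes, 2.84 log2 units between its lowest and highest array. In flies of 25 °C it stood at 8.41, 8.46 and 8.67 (fluctuating) and 8.62, 8.50 and 8.78 (constant) after ramping, against 9.93, 9.75 and 9.71 (fluctuating) and 9.84, 9.82 and 9.85 (constant) at 20 °C. In flies of 15 °C it stood at 7.09 and 7.47 (fluctuating) and 7.28, 7.48 and 7.12 (constant) after ramping, against 8.44, 8.85 and 8.67 (fluctuating) and 8.75, 8.86 and 8.76 (constant) at 20 °C. Neither factor left any overlap between the groups it separates, as for 11% (mean temperature) and 6.19% (ramping) of all probe sets in these directions. The ramped 25 °C flies and the unramped 15 °C flies did overlap, so that the 8 groups formed 3 steps: unramped 25 °C flies at the top, ramped 25 °C and unramped 15 °C flies in the middle, and ramped 15 °C flies at the bottom.

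With ramping, Lip4 changed by −1.34 ± 0.06 on the log2 scale (SE of the averaged comparison, limma, adjusted p = 1.2e-13), to 0.395 times the level at 20 °C, which was the 30th lowest of 18769 changes. Over the single comparisons the change lay between −1.50 and −1.20. With mean temperature, it rose by 1.19 ± 0.06 (adjusted p = 1.7e-12), 2.29-fold, and between 1.05 and 1.34 in the 4 comparisons. Mean temperature made up 43.9% and ramping 55.5% of the variance among its 8 group means, while the regime made up 0.194%.

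The droplet lipase bmm took the opposite course on ramping. In flies of 25 °C it stood at 11.53, 11.58 and 11.75 (fluctuating) and 11.58, 11.65 and 11.61 (constant) after ramping, against 11.23, 11.03 and 11.12 (fluctuating) and 11.26, 11.18 and 11.19 (constant) at 20 °C. In flies of 15 °C it stood at 11.01 and 11.24 (fluctuating) and 10.94, 10.95 and 10.85 (constant) after ramping, against 10.58, 10.68 and 10.59 (fluctuating) and 10.80, 10.65 and 10.56 (constant) at 20 °C. The ramped arrays were above the unramped ones in all 4 pairs of groups, as for 5.51% of all probe sets. The highest group means were those of ramped 25 °C flies. The averaged change was 0.41 ± 0.04 (limma, adjusted p = 5.7e-08), 1.33-fold, with single changes of 0.49 and 0.41 at 25 °C (fluctuating and constant) and 0.51 and 0.24 at 15 °C. The smallest of these, in flies of constant 15 °C, had an adjusted p of 0.049 and lost its call when any of 16 of the 23 arrays was left out (adjusted p of 0.020 to 0.20 over the 23). Mean temperature raised bmm by 0.56 ± 0.04 (adjusted p = 3.4e-10).

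The gut lipase mag differed mainly between mean temperatures, which made up 78.9% of the variance of its group means. Its group means were 11.17 ± 0.16 and 11.51 ± 0.05 (25 °C fluctuating, 35 °C and 20 °C), 11.45 ± 0.15 and 11.45 ± 0.08 (25 °C constant), 10.41 ± 0.20 and 10.77 ± 0.14 (15 °C fluctuating) and 10.68 ± 0.05 and 10.99 ± 0.04 (15 °C constant, SD, n = 3, and n = 2 for ramped flies of fluctuating 15 °C). Every 25 °C array lay above the 15 °C arrays of its own regime and assay, as for 11% of all probe sets. The averaged change was 0.68 ± 0.05 (limma, adjusted p = 2.7e-10). Ramping changed mag by −0.36 to −0.31 in the 3 comparisons that passed the threshold, whereas in flies of constant 25 °C the change was 0.00 ± 0.10 (adjusted p = 0.99). Each of these 3 calls depended on single arrays. In flies of constant 15 °C the call was lost without ramped replicates 2 or 3 or unramped replicates 2 or 3 (smallest change −0.29, adjusted p of up to 0.10). It was lost in flies of fluctuating 15 °C without unramped replicates 1 or 2 (smallest change −0.30, adjusted p of up to 0.11). There it was also lost without ramped replicate 2 (−0.22), a fit that left only ramped replicate 1 in that group. In flies of fluctuating 25 °C it was lost without ramped replicate 1 or unramped replicates 1 or 3 (smallest change −0.25, adjusted p of up to 0.10). The averaged fall, −0.26 ± 0.05 (adjusted p = 0.00028), kept its call without any 1 array.

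The lipases all rose with mean temperature, whereas with ramping bmm rose and Lip4 and mag fell. The change of bmm exceeded that of Lip4 by 1.75 with ramping and that of mag by 0.67, and the change of mag exceeded that of Lip4 by 1.08. Each of these differences reached the smallest p that the exact two-sided permutation, made inside each combination of the other factors, allows, 1.25e-05 (adjusted p = 2.9e-05 over 14 differences, which were chosen after the values were seen). With mean temperature the difference was −0.63 for bmm minus Lip4 and −0.51 for mag minus Lip4 (exact permutation, adjusted p = 2.9e-05 and 3.9e-05), and −0.12 for bmm minus mag (exact permutation, adjusted p = 0.094). Changes of different probe sets can be compressed to a different extent by GC-RMA, so that such differences compare measured changes and not transcript numbers.

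**Figure D2:**
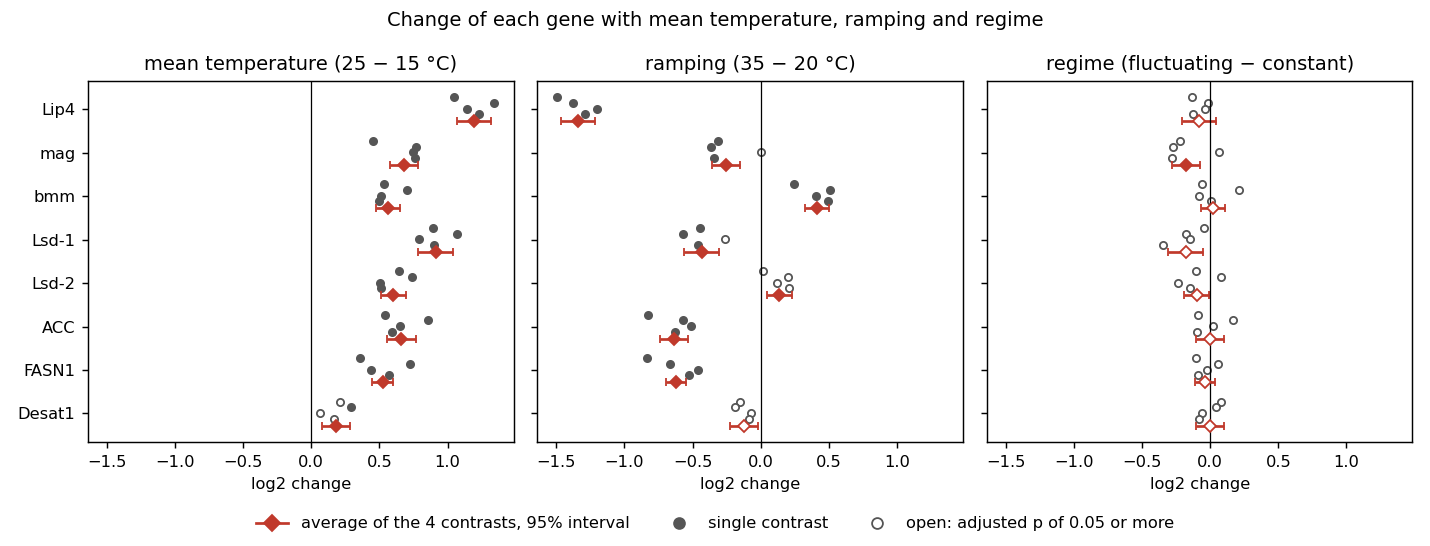
Log2 change of each gene with mean temperature (25 minus 15 °C), ramping (35 minus 20 °C) and regime (fluctuating minus constant). Red diamonds are the averages of 4 comparisons with 95% intervals, grey circles the single comparisons, and open symbols have an adjusted p of 0.05 or more. All red diamonds are filled for mean temperature, bmm and Lsd-2 lie right of 0 for ramping, and mag is the only filled diamond for regime.

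Of the perilipins, Lsd-1 showed the second largest rise with mean temperature after Lip4, 0.91 ± 0.06 or 1.88-fold (limma, adjusted p = 1.1e-10). Its level was 10.94, 10.49 and 10.97 (ramped) and 11.22, 11.32 and 11.24 (20 °C) in flies of fluctuating 25 °C, and 11.16, 11.07 and 11.21 (ramped) and 11.52, 11.33 and 11.39 (20 °C) in flies of constant 25 °C. In flies of fluctuating 15 °C it was 9.96 and 9.85 (ramped) and 10.46, 10.56 and 10.40 (20 °C), and in flies of constant 15 °C 10.38, 10.01 and 9.84 (ramped) and 10.49, 10.46 and 10.61 (20 °C). Ramped arrays were below unramped ones in all 4 pairs of groups, as for 6.19% of all probe sets. In each of 2 ramped groups 1 array, replicate 2 of fluctuating 25 °C and replicate 1 of constant 15 °C, stood apart from its group. The averaged change with ramping was −0.43 ± 0.06 (adjusted p = 7.6e-06). The single comparisons passed the threshold in 3 of 4, with changes of −0.46 (25 °C fluctuating), −0.57 (15 °C fluctuating) and −0.44 (15 °C constant), and not in flies of constant 25 °C (−0.26, adjusted p = 0.15). Without ramped replicate 2 the change was −0.30 in flies of fluctuating 25 °C (adjusted p = 0.092). In flies of fluctuating 15 °C the call was lost without ramped replicate 2 (−0.52), a fit that left only ramped replicate 1 in that group. In flies of constant 15 °C the call was lost without ramped replicates 2 or 3 or unramped replicate 3 (smallest change −0.32, adjusted p of up to 0.11).

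Lsd-2, the perilipin known to protect the droplet from lipolysis, differed from Lsd-1 on ramping. Its group means were 11.26 ± 0.05 and 11.05 ± 0.14 (25 °C fluctuating, 35 °C and 20 °C), 11.41 ± 0.06 and 11.29 ± 0.02 (25 °C constant), 10.75 ± 0.07 and 10.55 ± 0.05 (15 °C fluctuating) and 10.67 ± 0.10 and 10.65 ± 0.18 (15 °C constant). Ramped arrays lay above unramped ones in 3 of the 4 pairs and overlapped with them in flies of constant 15 °C. No single comparison with ramping passed the threshold (changes of 0.02 to 0.21, lowest adjusted p 0.11), and the averaged rise was 0.14 ± 0.04 (limma, adjusted p = 0.019). This call was lost after a further quantile normalization (0.10, adjusted p = 0.11). It was also lost without ramped replicate 2 of fluctuating 15 °C (0.13), a fit that left only ramped replicate 1 in that group. The change of Lsd-2 exceeded that of Lsd-1 by 0.57 with ramping (exact permutation, adjusted p = 3.9e-05), and its rise with mean temperature, 0.60 ± 0.04, differed from that of Lsd-1 by −0.31 (exact permutation, adjusted p = 0.0007). Mean temperature made up 89.3% of the variance of the group means of Lsd-2, the highest share among the 8 genes.

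The enzymes ACC and FASN1 act one after the other in fatty acid synthesis and had nearly parallel values. FASN1 stood at 13.00, 12.85 and 12.87 (fluctuating) and 13.03, 13.00 and 12.97 (constant) in ramped flies of 25 °C, against 13.49, 13.41 and 13.41 (fluctuating) and 13.45, 13.49 and 13.45 (constant) at 20 °C. In flies of 15 °C it stood at 12.27 and 12.40 (fluctuating) and 12.38, 12.30 and 12.14 (constant) after ramping, against 12.98, 13.07 and 12.95 (fluctuating) and 13.10, 13.08 and 13.14 (constant) at 20 °C. No array of a ramped group reached an array of its unramped counterpart, as for 6.19% of all probe sets. The ramped 25 °C flies were at the level of unramped flies of fluctuating 15 °C. ACC averaged 11.82 ± 0.07 and 12.45 ± 0.19 (25 °C fluctuating, 35 °C and 20 °C), 11.92 ± 0.02 and 12.43 ± 0.01 (25 °C constant), 11.23 ± 0.11 and 11.80 ± 0.07 (15 °C fluctuating) and 11.06 ± 0.16 and 11.89 ± 0.15 (15 °C constant).

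With ramping, FASN1 changed by −0.62 ± 0.04 (limma, adjusted p = 7.0e-12) and ACC by −0.64 ± 0.05 (adjusted p = 1.3e-09), to 0.649 and 0.643 times the levels at 20 °C, and both passed the threshold in all 4 comparisons. The 2 changes differed by 0.01 (exact permutation, p = 0.74). With mean temperature FASN1 rose by 0.52 ± 0.04 (adjusted p = 1.1e-10) and ACC by 0.66 ± 0.05 (adjusted p = 4.8e-10), a difference of −0.14 (exact permutation, adjusted p = 0.0023). In constant regimes the fall of FASN1 with ramping was −0.46 in flies of 25 °C and −0.83 in flies of 15 °C. The interaction was 0.37 ± 0.10 (limma, adjusted p = 0.12, and 0.046 to 0.33 under the alternatives that keep the same 23 arrays or fewer), and it was called only with a variance trend in the fit.

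Desat1 varied least, by 0.55 log2 units over the 23 arrays. Its group means were 13.43 ± 0.10 and 13.52 ± 0.14 (25 °C fluctuating, 35 °C and 20 °C), 13.51 ± 0.05 and 13.58 ± 0.09 (25 °C constant), 13.26 ± 0.01 and 13.45 ± 0.24 (15 °C fluctuating) and 13.22 ± 0.03 and 13.37 ± 0.04 (15 °C constant). Neighbouring groups overlapped except for the lowest ones, the ramped 15 °C flies. Mean temperature raised it by 0.18 ± 0.05 on average (limma, adjusted p = 0.0031) and in 1 single comparison, that of ramped flies of constant regimes (0.29, adjusted p = 0.017). That call was lost without ramped replicate 1 of constant 25 °C or ramped replicate 3 of constant 15 °C (adjusted p = 0.051 and 0.054). Ramping changed Desat1 by −0.13 ± 0.05 (adjusted p = 0.056, 95% interval −0.23 to −0.02), a change that differed from those of ACC and FASN1 by 0.51 and 0.50 (exact permutation, adjusted p = 7.0e-05 and 3.9e-05).

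Counted over the single comparisons, mean temperature raised 7 of the 8 genes in fluctuating flies after ramping and 7 at 20 °C. There, 33.1% and 35.3% of all probe sets were called in either direction, and 2564 and 3309 of 18769 rose. In constant regimes it raised 8 after ramping and 7 at 20 °C, against 43.6% and 43% of all probe sets called in either direction. Of all probe sets, 4103 and 4126 rose there. Lip4, mag, bmm, Lsd-1, Lsd-2, ACC and FASN1 were called in every one of the 4, all as higher at 25 °C. With ramping, bmm rose and 5 genes fell in flies of fluctuating 25 °C (16.6% of all probe sets called in either direction). In flies of constant 25 °C bmm rose and 3 fell (18.5%), and bmm rose and 5 fell in flies of fluctuating (13.5%) and of constant 15 °C (14.5%).

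The fluctuating regime gave few calls on these genes. None of the 8 passed the threshold in flies of 25 °C after ramping or at 20 °C, where 1.05% and 0.938% of all probe sets were called, or in flies of 15 °C, where 2.22% and 2.16% were called (limma). In the same order, 2, 1, 2 and 1 of the 8 had an unadjusted p under 0.05, against 3851, 2311, 3037 and 3435 of all 18769 probe sets. In flies of 25 °C mag changed by −0.28 after ramping and 0.07 at 20 °C. In flies of 15 °C the changes were −0.27 and −0.22. Their adjusted p values lay between 0.10 and 0.87 (limma). Averaged over the 4 comparisons mag changed by −0.18 ± 0.05 (adjusted p = 0.020). This call was lost without ramped replicate 2 of fluctuating 15 °C (−0.14), a fit that left only ramped replicate 1 in that group. Lsd-1 changed by −0.18 ± 0.06 on average (adjusted p = 0.055), and whether mag and Lsd-1 differ was not tested. The 95% intervals of the averaged changes lay between −0.31 and 0.11 for all 8 genes. Those of the single comparisons were wider, between −0.59 (Lsd-1, ramped flies of 25 °C) and 0.40 (bmm). The regime made up 5.38% of the variance of the group means for mag, 3.01% for Lsd-1 and 2.47% for Lsd-2. For the other genes it made up 0.234% (FASN1) or less, with 0.0839% for bmm.

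No interaction was called for any of the 8 genes. The fall or rise with ramping was compared between mean temperatures in constant and in fluctuating regimes, where 0.65% and 0.0693% of all probe sets were called. At an unadjusted p under 0.05 (limma) were 3 and 0 of the 8 genes, against 1715 and 1366 of all 18769 probe sets. The effect of the regime was compared between mean temperatures at 20 °C and after ramping, with 0.0746% and 0.032% of all probe sets called. It was also compared between assay temperatures at 25 °C and 15 °C, with 0% called in both. In these 4 comparisons 1, 0, 1 and 1 of the 8 genes had an unadjusted p under 0.05, against 2605, 2537, 711 and 1174 of all probe sets. In constant regimes the 3 genes were FASN1, ACC (0.32 ± 0.14) and mag (0.31 ± 0.14), where FASN1 and ACC fell less at 25 °C than at 15 °C and mag changed by 0.00 at 25 °C and −0.31 at 15 °C, and the adjusted p values of ACC and mag were both 0.49 (limma).

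**Figure D3:**
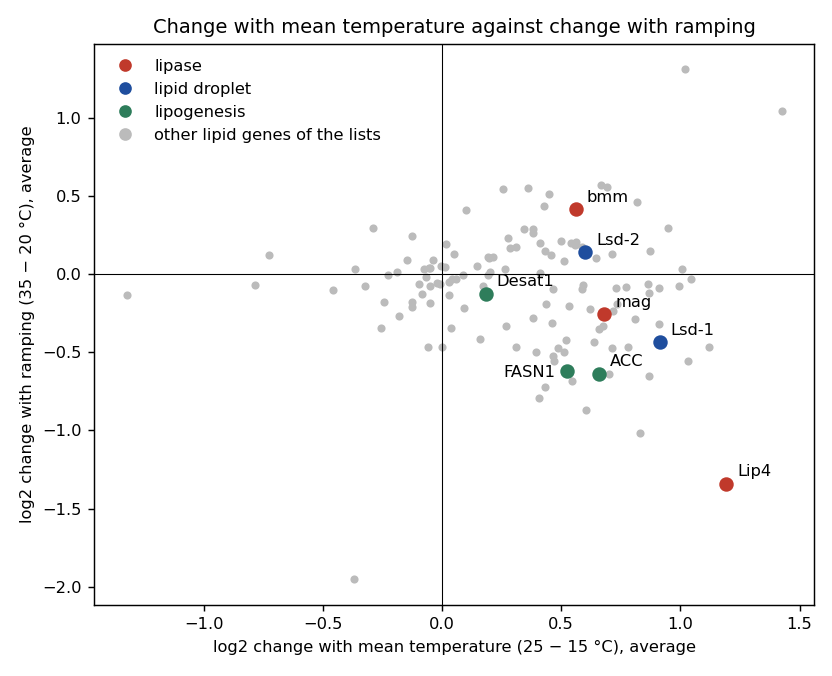
Averaged log2 change with ramping (vertical axis) against averaged log2 change with mean temperature (horizontal axis), both from the same 23 arrays. Coloured points are the 8 genes by role, grey points the 122 other measured genes of the 7 lists of lipid metabolism. All 8 genes lie right of 0, Lip4 lies at the lower right (1.19 and −1.34), and bmm and Lsd-2 lie above 0.

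Other genes of lipid metabolism were grouped by role. With mean temperature, the members of the storage and use pathways were mostly higher at 25 °C: 11 of 14 genes of fatty acid synthesis rose and 1 fell, 9 of 12 of triglyceride synthesis rose and 1 fell, and 16 of 17 of beta oxidation, 8 of 13 of lipid transport and 16 of 19 regulators rose with none falling. Examples were Agpat4 (0.99) and Dgat2 (0.86), acyltransferases of triglyceride synthesis, yip2 (0.91), a thiolase of beta oxidation, and Acox3 (0.91), an acyl-CoA oxidase. In lipid transport the lipoprotein Apoltp rose by 1.12 and the transfer protein Mtp by 1.04, and among the regulators the insulin-like peptide gene Ilp2 rose by 1.01 and sug, a sugar-induced transcription factor, by 0.83. The list medians were 0.45, 0.50, 0.59, 0.31 and 0.35, against 0.00 over all probe sets, of which 28.9% rose and 27.1% fell. The lipase families did not share this direction, with 8 of 19 acid lipases and 12 of 28 neutral lipases rising and 5 and 7 falling (medians of 0.03 and 0.00), from CG31089 (1.42) to CG11600 (−1.32).

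With ramping, more genes of the synthesis lists fell than rose, while of all probe sets 16.2% rose and 17% fell. In fatty acid synthesis 9 of 14 genes fell, led by FASN3 (−0.79) and the acyl-CoA synthetase bgm (−0.64), and only SCAP, the escort of SREBP, rose (0.12). In triglyceride synthesis 5 of 12 fell and none rose, led by mino (−0.56) and mdy (−0.43), which encode a glycerol-3-phosphate and a diacylglycerol acyltransferase. Lipid transport had 7 of 13 falling and 2 rising, while beta oxidation had 7 of 17 rising, led by Acox57D-p (0.46), and 3 falling. The regulators split, with 7 of 19 rising and 7 falling.

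The regulators that fell included sug (−1.02), AkhR, the receptor of the fat-mobilising adipokinetic hormone (−0.87), and those that rose InR, the insulin receptor (0.55), and HDAC4 (0.41), a histone deacetylase. The transcript of SREBP, known to drive ACC and FASN1, changed by 0.03 (limma, adjusted p = 0.56), and the activity of its protein was not measured. Among the acid lipases 5 of 19 rose and 4 fell, with CG18302 at −1.95, below Lip4, and CG31089 at 1.04. Among the neutral lipases 6 of 28 rose and 5 fell, with CG5966 at 1.31, above bmm, and CG17292 at −0.73. The list medians were −0.23, −0.09, −0.28, 0.05 and 0.09 for fatty acid synthesis, triglyceride synthesis, lipid transport, beta oxidation and the regulators, and −0.03 and 0.03 for acid and neutral lipases, against 0.00 over all probe sets, of which 16.2% rose and 17% fell.

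With the fluctuating regime, 7 of 19 acid and 7 of 28 neutral lipases fell and none rose. Of all probe sets 6.41% fell and 8.82% rose. The largest falls were those of CG18301 (−0.30) and CG18284 (−0.26) among the acid lipases and of CG6295 (−0.51) and CG6283 (−0.34) among the neutral lipases. This was the direction of mag, while Lip4 changed by −0.08 (limma, adjusted p = 0.42) and bmm by 0.02 (adjusted p = 0.80). Of 14 genes of fatty acid synthesis 2 rose and 2 fell, and of 19 regulators 1 rose and 3 fell. In triglyceride synthesis 2 of 12 fell, in beta oxidation 3 of 17 and in lipid transport 1 of 13.

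**Figure D4:**
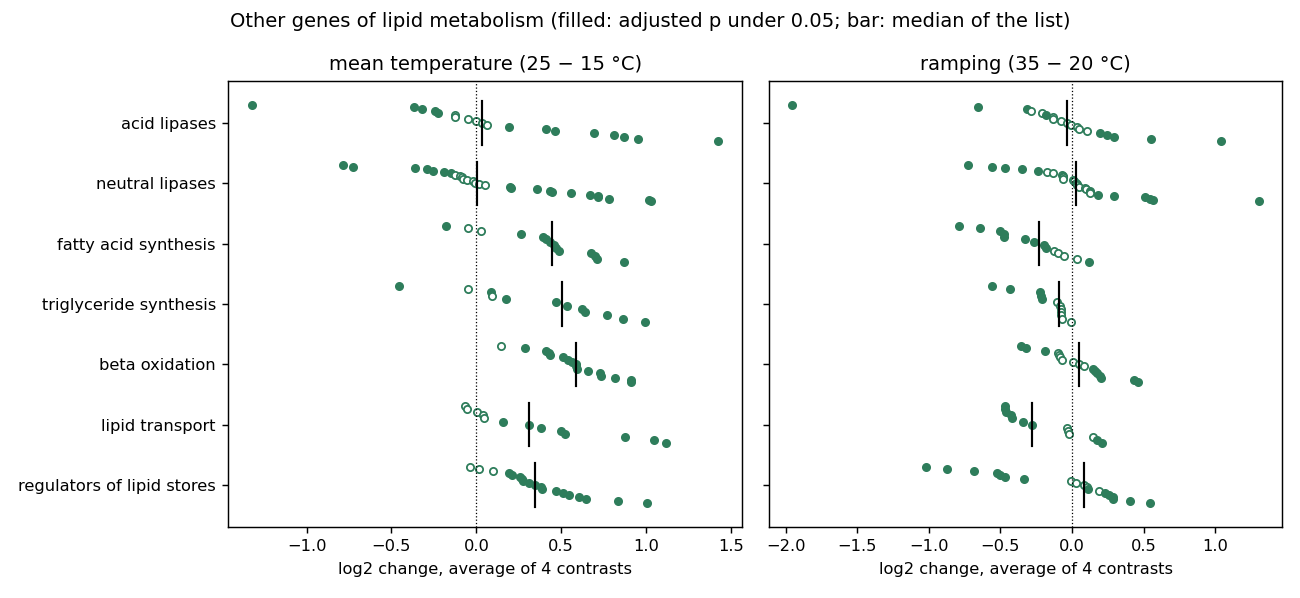
Averaged log2 change of each measured gene in 7 lists of lipid metabolism, with mean temperature on the left and ramping on the right. Filled points have an adjusted p under 0.05 and black bars are list medians. Genes of beta oxidation lie right of 0 with mean temperature (median 0.59) and on both sides of 0 with ramping (median 0.05), where fatty acid synthesis has a median of −0.23.

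Markers of tissues moved with mean temperature as well, where 28.9% of all probe sets rose and 27.1% fell. In whole flies, a higher level from more cells of a tissue and from more RNA per cell cannot be told apart. Of 10 fat body genes 8 rose at 25 °C and 2 fell, and their summed linear signal was 40.1 to 60.1 on 25 °C arrays, against 26.5 to 36.1 on 15 °C arrays. All 18 midgut genes rose, with sums of 52.3 to 73.7 against 36.4 to 50.3, all 12 flight muscle genes fell, with sums of 28.5 to 32.4 against 46.9 to 55.2, 14 of 15 testis genes fell and 1 rose, and 8 of 11 accessory gland genes fell and 2 rose. The fat body genes that fell were Fbp1 and Fbp2. Of the 6 oenocyte genes 5 rose.

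With ramping, 4 of the 10 fat body genes fell and 1 rose, and their sum was 40.1 to 52.4 in ramped flies of 25 °C, against 50.2 to 60.1 at 20 °C, and 26.5 to 31.5 in ramped flies of 15 °C, against 34.3 to 36.1 at 20 °C. Of the midgut genes 4 of 18 rose and 6 fell, and of the accessory gland genes 1 of 11 rose and 4 fell. Of the 6 oenocyte genes 4 fell and none rose (median −0.39), among them FASN3, FASN2 and ifc, which are also in the list of fatty acid synthesis. Of 12 flight muscle genes 2 rose and 1 fell, and of 15 testis genes 1 fell. Over all probe sets 16.2% rose and 17% fell with ramping. With the fluctuating regime, 8 of 11 accessory gland, 8 of 18 midgut and 3 of 10 fat body genes fell and none of these lists rose (medians of −0.15, −0.24 and −0.14). Of 15 testis genes 5 rose and none fell, of 6 oenocyte genes 2 rose and 1 fell, and of 12 flight muscle genes 1 fell. Over all probe sets 8.82% rose and 6.41% fell with the regime. The part of tissue proportions in the changes of the 8 genes was not tested.

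Across the 8 group means, Lip4, ACC and FASN1 were close to each other (Pearson r of 0.99 for each pair), and mag followed Lsd-1 (0.98). In contrast, bmm had r of 0.10 with Lip4, 0.18 with ACC and 0.08 with FASN1, and was nearest to Lsd-2 (0.90). The genes elsewhere on the array with the most similar group means were Alp2, an alkaline phosphatase, and CG7536 for Lip4, Acat1 and Surf4 for mag, par-1 and aqz for bmm, CG2736 and Dolk for Lsd-1, spartin and CG3589 for Lsd-2, Hinfp and Timp for ACC, CG3348 and DhpD for FASN1, and CG3301 and Acsl, a long-chain acyl-CoA synthetase, for Desat1. Their r was 0.989 to 0.997. These coefficients describe 8 group means and carry no test.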

How the data were processed

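RNA of whole males was hybridised to 24 arrays, 3 per group, and groups were taken from the sample labels. The authors background-corrected, normalized and summarised the probe intensities by GC-RMA and deposited 1 log2 expression value per probe set and array. Scanner files were not used here, so no scan or hybridisation batch was tested. Arrays have no read depth, and their number limits the precision.

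After 183 control probe sets were left out, 18769 remained. Linear models came from limma (3.58.1, under R 4.3.3, 8 group means, no covariates, 23 arrays, two-sided, Benjamini-Hochberg within a comparison, threshold 0.05) and were tested on simulated data. The averaged comparisons are means of 4. Of these probe sets 13647 carried 1 symbol and 402 several, which were not assigned. Where a listed gene had several probe sets, that with the highest mean was used. Differences between changes of 2 genes were tested by exact permutation of arrays inside each combination of the other factors (80000 arrangements) in Python 3.11.15. Replicates are pools from 1 cabinet per combination of mean temperature and regime, so p values measure the spread between pools.

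The genes named are the 8 members, from each list the 2 largest called rises and the 2 largest called falls of a factor, and per member the 2 most similar genes. SREBP was named after its value was seen. Members and lists were chosen with earlier results of these data known. Alternatives were all 24 arrays, fits on fewer arrays, each array left out, a replicate block, a filter at a mean of 4, a variance trend, equal array medians and quantile normalization.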

Additional observations from a re-analysis of the deposited data

How the results depend on the processing

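The left-out array decided most calls. With all 24 arrays, calls over the single comparisons fell to 5 for mean temperature and 4 for ramping, against 29 and 22 without it, and calls in the averaged comparisons to 6, against 16. Among results past the threshold without it, the sign then turned for bmm with ramping in flies of fluctuating 15 °C (−0.89), for Lsd-2 with averaged ramping (−0.34), and for the differences with mean temperature of Lsd-2 minus Lsd-1 (0.0249) and FASN1 minus ACC (0.0365), none past the threshold any more. On 23 arrays or fewer no called change turned its sign. Of 67 calls, 57 were kept when each of the 23 arrays was left out in turn. Leaving out 1 array gave 0 to 1 calls over the comparisons of regimes. They were Lsd-1 at 25 °C after ramping without replicate 3 of the fluctuating flies, and mag at 15 °C after ramping without replicate 1. The fit for mag left only replicate 2 in the ramped group of fluctuating 15 °C. The variance trend gave 1 interaction, FASN1, against 0.

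Arrays of the same replicate number did not deviate together (median r of 0.0012 over 77 pairs, −0.37 to 0.49). A replicate block left 21 of the 22 ramping calls, losing bmm in flies of constant 15 °C, and changed no other call. Fits on only the arrays compared left 19 ramping calls, and equal medians and quantile normalization 21 each. Desat1 with averaged ramping and Lsd-1 with averaged regime were called with a filter at a mean of 4, a variance trend and quantile normalization (adjusted p of 0.013 to 0.050). Each member has 1 probe set, so averaging probe sets was not run.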
